A study of Mus musculus with 12 samples.

Results

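The genes described here encode the enzymes of cholesterol and fatty acid synthesis and the proteins that regulate them. They are 32 genes chosen by symbol, of 49315 in the table of read counts, and all 32 had a row. RNA was sequenced from 12 libraries of C57BL/6 mouse cells, 3 in each of 4 groups. Group 2 innate lymphoid cells (ILC2s), lymphoid cells that lack antigen receptors and release type 2 cytokines, came from lung, were grown with a mix of the alarmins IL-25 and IL-33 plus IL-7 and IL-2, and then spent 48 h in IL-2 and IL-7. Eosinophils, granulocytes of type 2 immunity, came from peripheral blood as cells left by beads against B220 and CD90, and spent 24 h with IL-33, so both eosinophil groups are labelled IL-33 Act EOS. After washing, each cell type was kept for 24 h without added cytokines, either alone (ILC2; IL-33 Act EOS) or with the other (ILC2 + IL-33 Act EOS; IL-33 Act EOS +ILC2s), and the 2 cell types were separated by flow cytometry. Age, sex, the number of cells and the ratio in coculture are not given in the labels, nor do they say that replicates came from separate cultures or animals. The p-values therefore reflect only how these samples vary, and that variation may be technical. A library held between 16769929 and 22928961 counts, so that 3 counts of a gene amount to between 0.131 and 0.179 CPM (a count divided by its library's size, scaled as usual).

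Cells build cholesterol from acetyl-CoA through mevalonate, isoprenoid diphosphates, squalene and lanosterol, and fatty acids through malonyl-CoA. Transcription of both pathways is driven by the SREBP proteins, which Srebf1 and Srebf2 encode. SREBPs are made in the membrane of the endoplasmic reticulum, where the escort protein Scap carries them toward the Golgi for cleavage when sterols are scarce and the Insig proteins hold them back when sterols are plentiful. Lymphocytes that begin to divide are known to switch on these pathways to make membrane.

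SREBPs bind sterol regulatory elements near gene starts, usually next to CCAAT boxes bound by NF-Y. The RefSeq table of promoters (build GRCm38.p6, from 250 bases before to 50 after a gene start) held a window for 25 of the 32 genes. Fdps, Fdft1, Sqle, Stard4, Scd1, Scd2 and Fads1 had no window used here. The 250 bases before the start are shown first for Hmgcs1, the single gene with the core element searched for. Next come Idi1 and Hsd17b7, which had the largest fold changes in ILC2s after Fads2. Insig1, a regulator that moved in opposite directions in the cell types, and Fads2, with the largest fold change, follow. Capitals mark TCACNCCAC (the core of a sterol regulatory element), CACGTG (an E-box) and ATTGG or its reverse complement CCAAT. The windows lie at chr13:119690101-119690350 (plus strand), chr13:8885356-8885605 (plus), chr1:169969206-169969455 (minus), chr5:28071162-28071411 (plus) and chr19:10101504-10101753 (minus).
Hmgcs1: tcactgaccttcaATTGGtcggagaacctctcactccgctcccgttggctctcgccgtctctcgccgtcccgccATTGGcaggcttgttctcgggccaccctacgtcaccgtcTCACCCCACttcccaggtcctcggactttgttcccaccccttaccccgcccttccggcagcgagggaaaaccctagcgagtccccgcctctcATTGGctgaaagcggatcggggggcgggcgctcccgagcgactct
Idi1: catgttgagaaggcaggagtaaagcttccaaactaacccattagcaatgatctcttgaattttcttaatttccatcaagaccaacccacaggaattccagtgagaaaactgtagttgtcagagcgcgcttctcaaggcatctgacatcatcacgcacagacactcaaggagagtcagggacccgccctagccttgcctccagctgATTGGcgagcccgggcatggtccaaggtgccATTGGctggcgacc
Hsd17b7: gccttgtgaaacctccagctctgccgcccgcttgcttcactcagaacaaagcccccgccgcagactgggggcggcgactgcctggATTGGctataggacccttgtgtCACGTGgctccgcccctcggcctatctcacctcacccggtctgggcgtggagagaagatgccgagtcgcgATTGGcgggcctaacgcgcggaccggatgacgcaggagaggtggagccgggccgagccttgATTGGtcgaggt
Insig1: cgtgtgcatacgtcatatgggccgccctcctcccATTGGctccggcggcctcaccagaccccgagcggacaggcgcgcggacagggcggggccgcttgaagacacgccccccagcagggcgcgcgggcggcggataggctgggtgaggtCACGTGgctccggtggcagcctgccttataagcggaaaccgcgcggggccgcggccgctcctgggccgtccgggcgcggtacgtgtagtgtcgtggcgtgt
Fads2: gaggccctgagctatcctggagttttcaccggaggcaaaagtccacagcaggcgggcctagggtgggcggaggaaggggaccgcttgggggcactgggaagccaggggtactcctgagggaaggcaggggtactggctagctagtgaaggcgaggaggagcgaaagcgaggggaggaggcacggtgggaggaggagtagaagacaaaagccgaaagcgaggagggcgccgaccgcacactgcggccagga

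Over the 300-base windows, searched on both strands with overlaps between motifs allowed, 1 of 25 genes (4%) held TCACNCCAC, against 1.44% of all 27025 genes with a window. That gene was Hmgcs1, where the match began at -137 relative to the gene start. ATTGG was in the windows of 20 of the 25 (80%), against 41.1% of all genes with a window and 42.6% of the 10026 among them that were tested in ILC2s. The GC box GGGCGG was also in 20 (80%), against 38.2% and 67.7%. The E-box was in 5 (20%), namely Hsd17b7, Sc5d, Dhcr7, Insig1 and Scap, against 8.09% and 11.6%. A match describes letters and not binding.

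In the ILC2 libraries that had been cocultured with eosinophils, most of the 32 genes, from both pathways, were higher than in ILC2s alone. Of the 32, 26 rose and 2 fell (edgeR quasi-likelihood test, Benjamini-Hochberg adjusted p under 0.05), and 4 did not pass. Coculture changed a large part of all genes in ILC2s: 36.8% of the 14438 genes tested rose and 35.6% fell. Log2 fold changes with their standard errors (SE) are written below as log2 change ± SE. The median over the 32 was 0.82, against 0.00 for all genes tested. Outside the 32, as given below, all 6 further cholesterol synthesis genes tested rose. Of 19 further fatty acid genes tested, 9 rose, 6 fell and 4 did not pass. Summed over the 32 genes, the level was 1253, 1244 and 1268 CPM (scaled over all 12 libraries) in ILC2s alone and 2156, 2079 and 2013 CPM in ILC2s with eosinophils. In bulk RNA such as this, fewer cells carrying a transcript and less of it in each cell cannot be told apart.

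In eosinophils the same genes showed no common direction. Of 31 tested, 5 rose, 5 fell and 21 did not pass, where 11.4% of 13109 genes rose and 13.5% fell. The median of their log2 fold changes was -0.05, against 0.00 for all genes tested. Their summed level was 1210.1, 1239 and 1302 CPM in eosinophils alone and 1257, 1277 and 1243 CPM with ILC2s, so the groups overlapped. Fads2 was not tested there because it had 5 counts in all over the 3 libraries of eosinophils alone and 6 over those with ILC2s. Scaling by library totals in place of TMM moved the share of rises among all calls in eosinophils from 45.7% to 58%.

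**Figure D1:**
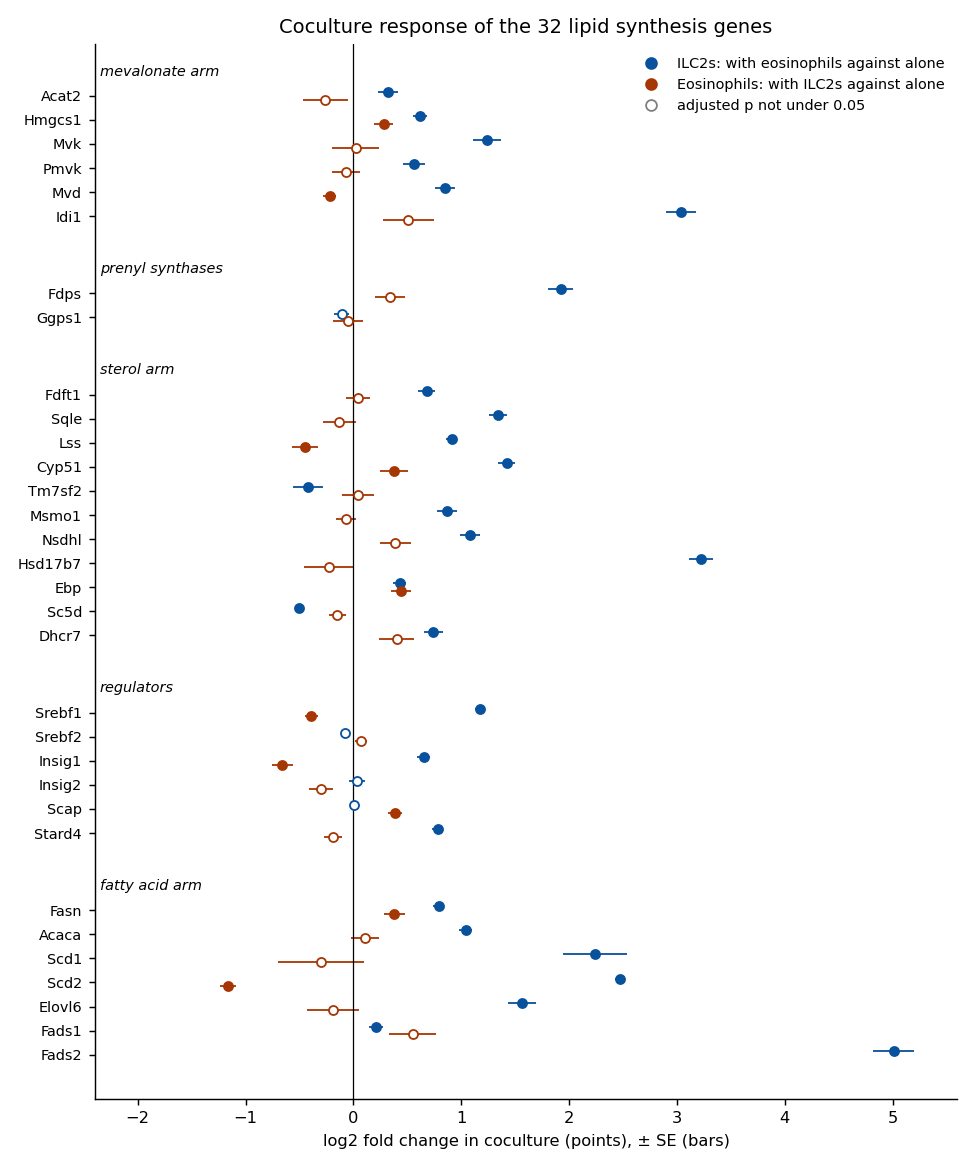
Log2 fold change with coculture (x axis) of each of the 32 genes (y axis, by role), as points with bars of ± SE, in ILC2s (blue) and eosinophils (brown), where open points did not pass the test. The blue points lie right of 0 except those of Tm7sf2, Sc5d, Ggps1 and Srebf2, and the brown points spread to both sides, with Scd2 lowest at -1.16.

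The mevalonate arm turns acetyl-CoA into isopentenyl diphosphate, and all 6 of its genes rose in ILC2s, beside 36.8% of all genes tested. Idi1, the isomerase that ends this arm (chromosome 13, 8885501 to 8892451, mm10), was at 1.97, 1.49 and 1.67 CPM in ILC2s alone and at 14.6, 13.6 and 14.2 CPM with eosinophils. All 3 cocultured libraries were far above the others, an 8.23-fold difference (log2 change 3.04 ± 0.14, edgeR adjusted p = 2.1e-17). In eosinophils Idi1 stood at 3.41, 2.03 and 2.54 CPM alone and 3.52, 3.77 and 4.26 CPM with ILC2s, and the difference did not pass (log2 change 0.51 ± 0.24, edgeR adjusted p = 0.156). The kinase genes Mvk and Pmvk rose in ILC2s by log2 fold changes of 1.24 and 0.56. Acat2, which condenses acetyl-CoA, rose by 0.32, a call that was lost when libraries were scaled by their totals (0.16, edgeR adjusted p = 0.107). In eosinophils Mvk, Pmvk and Acat2 had edgeR adjusted p-values from 0.412 to 0.967.

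Mvd, which decarboxylates mevalonate diphosphate, stood apart in this arm because eosinophils held far more of it. It was at 11, 11.6 and 10.8 CPM in ILC2s alone and rose to 21.3, 20.7 and 18.6 CPM with eosinophils (log2 change 0.85 ± 0.091, edgeR adjusted p = 1.9e-09). Eosinophils held 105, 102 and 114 CPM alone and 96.5, 93.2 and 92.1 CPM with ILC2s. These eosinophil groups did not overlap, and Mvd fell (log2 change -0.22 ± 0.062, edgeR adjusted p = 0.0172), but the call was lost with library totals (adjusted p = 0.0567) and without replicate 3 of eosinophils alone, or replicate 2 or 3 of eosinophils with ILC2s (0.0526, 0.0686 and 0.0878). Hmgcs1, which makes HMG-CoA and whose promoter is shown above, rose in ILC2s (0.62 ± 0.063, adjusted p = 7.1e-10). It also rose in eosinophils (log2 change 0.28 ± 0.09, edgeR adjusted p = 0.0394), a call that 5 of the 6 fits leaving out 1 library did not keep (adjusted p from 0.0751 to 0.149, all but the fit without replicate 2 of eosinophils alone).

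Both enzymes that lengthen isoprenoid diphosphates were measured. Fdps, which makes farnesyl diphosphate, the branch point to sterols and to prenylation, rose 3.8-fold in ILC2s (log2 change 1.92 ± 0.12, edgeR adjusted p = 2e-14). Ggps1, which extends farnesyl to geranylgeranyl diphosphate for protein prenylation, did not pass in ILC2s (-0.11 ± 0.07, adjusted p = 0.172), and was called lower with library totals (-0.26) and upper quartile scaling (-0.17), and without replicate 3 of ILC2s with eosinophils (-0.18). In eosinophils the log2 fold change was 0.34 for Fdps (edgeR adjusted p = 0.0997) and -0.05 for Ggps1 (0.842). The annotated gene spans of Ggps1 and of Arid4b, on the other strand, overlap by 257 bases, and shared exon bases were not counted. The strand setting of the counting is not given in the sources used here.

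The sterol arm carries squalene to cholesterol. In ILC2s 9 of its 11 genes rose and 2 fell, beside 36.8% and 35.6% of all genes tested. Hsd17b7, the ketosteroid reductase of sterol demethylation (chromosome 1, 169949535 to 169969241, mm10), was at 4.12, 4.5 and 5.76 CPM in ILC2s alone and at 51.9, 45.8 and 39.8 CPM with eosinophils. It was 9.34-fold higher in coculture, with no overlap (log2 change 3.22 ± 0.11, edgeR adjusted p = 6.9e-21). In eosinophils it stayed between 2.87 and 4.58 CPM in all 6 libraries, and the groups overlapped (log2 change -0.23 ± 0.23, edgeR adjusted p = 0.525).

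Cyp51, the lanosterol demethylase, was at 17.6, 15.6 and 14.6 CPM in ILC2s alone and 44.7, 42.7 and 40.8 CPM with eosinophils (log2 change 1.42 ± 0.075, edgeR adjusted p = 3e-16). The eosinophil libraries were at 11.1, 9.91 and 11.8 CPM alone and 16.1, 15.3 and 12.3 CPM with ILC2s. The latter groups did not overlap, but the rise passed narrowly (log2 change 0.38 ± 0.13, edgeR adjusted p = 0.0494) and did not pass with upper quartile or RLE factors, DESeq2, limma-voom or a filter at 1 CPM (adjusted p from 0.0503 to 0.0677), nor without replicate 1 or 2 of either eosinophil group (0.109 to 0.176).

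Lss, the cyclase that makes lanosterol, went in opposite directions. It was at 36.5, 38.5 and 39 CPM in ILC2s alone and 73.6, 74.2 and 68.5 CPM with eosinophils, a rise of 0.91 ± 0.054 on the log2 scale (edgeR adjusted p = 4.1e-15). Eosinophils held 22.2, 21.5 and 20.4 CPM alone and 14.3, 19.2 and 14.3 CPM with ILC2s, and fell (log2 change -0.45 ± 0.12, edgeR adjusted p = 0.016). The eosinophil call was lost without replicate 1 of eosinophils alone (adjusted p = 0.0601), or replicate 1 or 3 of eosinophils with ILC2s (0.0772 and 0.0929). Ebp, the sterol isomerase, is the member whose responses were closest in the 2 cells. It was at 30.7, 30.6 and 29.7 CPM in ILC2s alone and 40.1, 40.4 and 42.3 CPM with eosinophils (log2 change 0.43 ± 0.061, edgeR adjusted p = 3.6e-07). The eosinophil values were 28.6, 26.7 and 31.3 CPM alone and 39.5, 36.4 and 43.9 CPM with ILC2s (log2 change 0.44 ± 0.092, edgeR adjusted p = 0.00303), and neither pair of groups overlapped.

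Sc5d and Tm7sf2 fell in ILC2s, against the rest of the arm. Sc5d, a sterol desaturase near the end of the pathway, was at 107, 109 and 109 CPM in ILC2s alone and 76.1, 77.3 and 77.8 CPM with eosinophils (log2 change -0.50 ± 0.042, edgeR adjusted p = 1.1e-11). Its eosinophil levels were 43.7, 47.4 and 42 CPM alone and 39.5, 42.9 and 40 CPM with ILC2s, with overlap (log2 change -0.15 ± 0.079, edgeR adjusted p = 0.196). Tm7sf2, a sterol reductase whose step the lamin B receptor also performs, was at 6.28, 6.62 and 6.42 CPM in ILC2s alone and 5.14, 4.65 and 4.72 CPM with eosinophils (log2 change -0.42 ± 0.14, edgeR adjusted p = 0.00774). In eosinophils it lay between 6.61 and 9.09 CPM alone and between 7.76 and 8.58 CPM with ILC2s. The annotated gene span of Tm7sf2 shares 532 bases with that of Vps51 on the same strand.

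The other sterol genes rose in ILC2s and did not pass in eosinophils. In ILC2s the log2 fold change was 1.34 for the squalene epoxidase Sqle, 1.08 for Nsdhl, 0.87 for Msmo1, 0.74 for Dhcr7, the last reductase of one route to cholesterol, and 0.68 for the squalene synthase Fdft1. In eosinophils Nsdhl (log2 change 0.39 ± 0.14, edgeR adjusted p = 0.062) passed in 6 alternatives (0.39 to 0.46) and Dhcr7 (0.40 ± 0.16, adjusted p = 0.0836) in 4 (0.39 to 0.54), library totals and the fit on all 12 libraries among both. The annotated gene span of Fdft1 shares 774 bases with that of Ctsb on the other strand. Ctsb itself went from 10350 to 18398 counts over the 3 ILC2 libraries of a group.

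**Figure D2:**
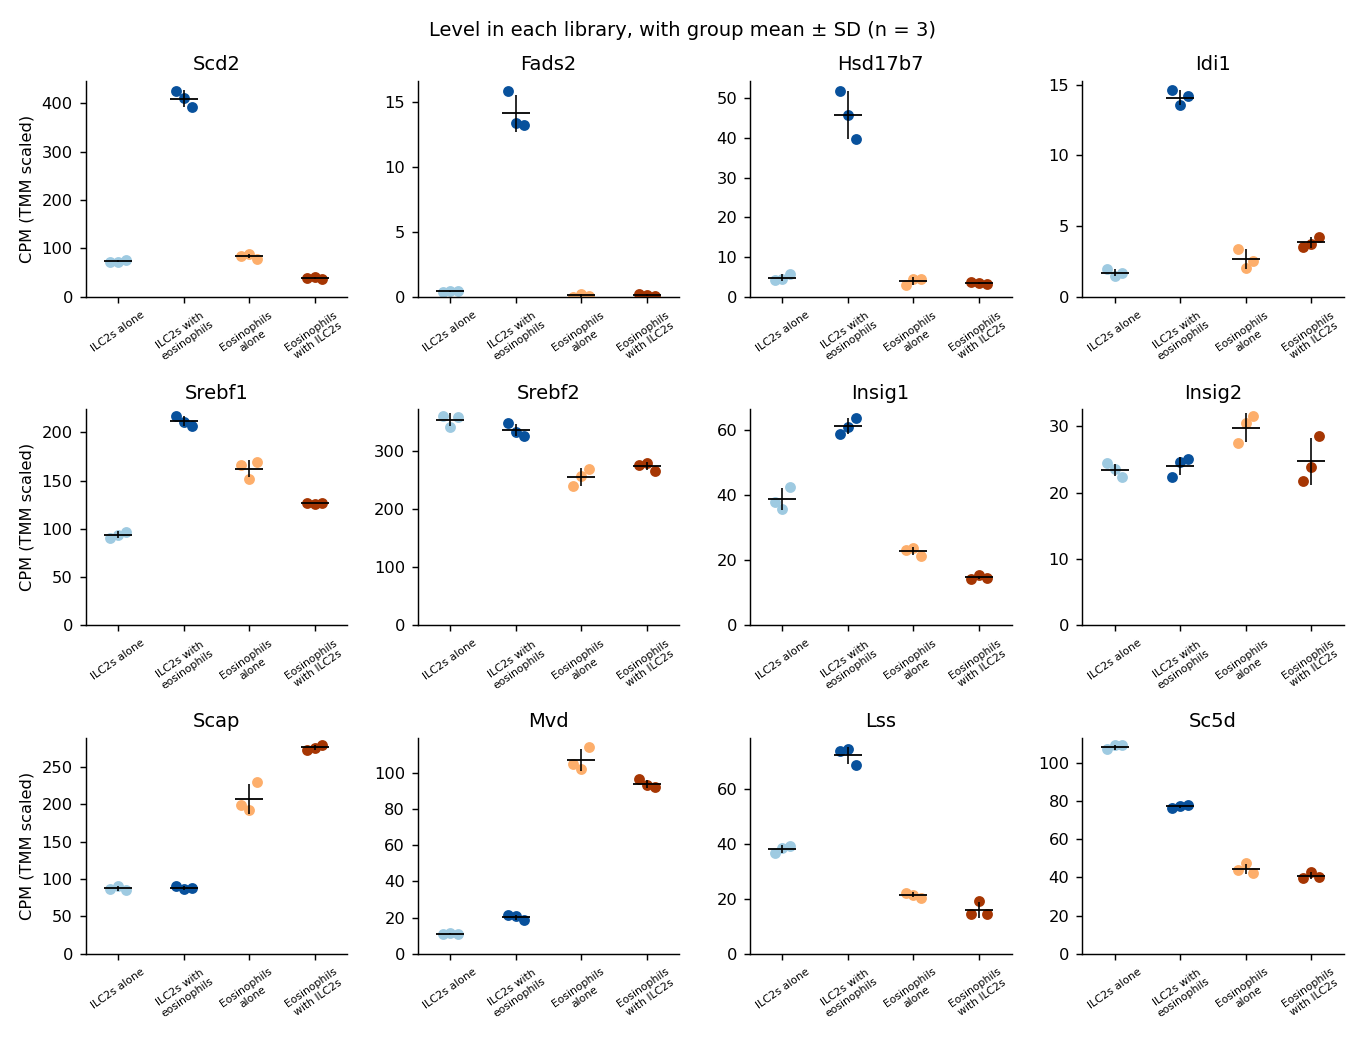
Level of 12 of the genes in CPM (y axis, from 0, scaled over all 12 libraries) in each library (points) of the 4 groups (x axis), with the mean (line) and SD (bar, n = 3). Scd2, Fads2, Hsd17b7 and Idi1 are highest in the 3 libraries of ILC2s with eosinophils, and Mvd and Scap in the eosinophil libraries.

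Among the regulators, Srebf1 moved in opposite directions in the 2 cell types. It was at 90, 93.7 and 97.1 CPM in ILC2s alone and 217, 211 and 207 CPM with eosinophils (log2 change 1.17 ± 0.041, edgeR adjusted p = 1.4e-20). In eosinophils it was at 166, 152 and 169 CPM alone and 127, 126 and 127 CPM with ILC2s (log2 change -0.39 ± 0.058, edgeR adjusted p = 0.00022). Between the cells alone Srebf1 was lower in ILC2s (log2 fold change -0.79 ± 0.061), and between the cocultured cells it was higher in ILC2s (0.73 ± 0.047). Insig1, itself a known target of SREBP, did the same. It was at 38, 35.7 and 42.4 CPM in ILC2s alone and 58.9, 61 and 63.8 CPM with eosinophils (log2 change 0.65 ± 0.06, edgeR adjusted p = 9.2e-11). In eosinophils it was at 23.2, 23.6 and 21.3 CPM alone and 14.3, 15.3 and 14.4 CPM with ILC2s (log2 change -0.66 ± 0.099, edgeR adjusted p = 0.00023). No Srebf1 or Insig1 group overlapped its partner.

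Srebf2, which encodes the SREBP most tied to cholesterol genes, did not pass in either cell type. It was at 362, 342 and 359 CPM in ILC2s alone and 349, 334 and 327 CPM with eosinophils (log2 change -0.08 ± 0.039, edgeR adjusted p = 0.063). Eosinophils held 239.7, 258 and 269.9 CPM alone and 277, 279.7 and 267 CPM with ILC2s (log2 change 0.07 ± 0.058, edgeR adjusted p = 0.41). Both pairs of groups overlapped. Its value in ILC2s stayed below 0 in every alternative, and passed in 7 of them, with log2 fold changes from -0.24 (library totals) to -0.08 (limma-voom). Insig2, the second anchor, did not pass either. It was at 24.4, 23.5 and 22.4 CPM in ILC2s alone, 22.4, 24.6 and 25 CPM in ILC2s with eosinophils, 27.4, 30.5 and 31.5 CPM in eosinophils alone and 21.7, 23.8 and 28.5 CPM in eosinophils with ILC2s. The eosinophil difference (log2 change -0.30 ± 0.11, edgeR adjusted p = 0.0583) passed in 4 alternatives (-0.27 to -0.42).

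Scap, the escort of both SREBPs, rose in eosinophils. It was at 199, 192 and 229.7 CPM in eosinophils alone and 273, 275 and 279 CPM with ILC2s, with no overlap (log2 change 0.39 ± 0.065, edgeR adjusted p = 0.00062). In ILC2s it was at 86.2, 90.8 and 85.3 CPM alone and 91.2, 86.1 and 87.3 CPM with eosinophils (log2 change 0.01 ± 0.045, edgeR adjusted p = 0.919), and was called lower with library totals (-0.15, adjusted p = 0.0038). Stard4, a carrier of cholesterol between membranes, was at 39.7, 39.7 and 38.6 CPM in ILC2s alone and 72.1, 66.1 and 65.7 CPM with eosinophils (log2 change 0.78 ± 0.054, edgeR adjusted p = 1.5e-13). Eosinophil groups overlapped for Stard4, at 50.3, 56.5 and 56.5 CPM alone and 47.7, 53.2 and 45.7 CPM with ILC2s (log2 change -0.19 ± 0.08, edgeR adjusted p = 0.116).

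All 7 genes of the fatty acid arm rose in ILC2s, where 36.8% of all genes tested rose. The median log2 fold change of the 7 was 1.56. Their summed level went from 241 ± 1.1 to 712 ± 43.4 CPM in ILC2s and from 139.5 ± 8.27 to 106 ± 8.52 CPM in eosinophils (mean ± SD, n = 3). Scd2, a stearoyl-CoA desaturase that makes monounsaturated fatty acids (chromosome 19, 44293674 to 44306864, mm10), made up most of the rise in ILC2s. In eosinophils it fell by more CPM than the sum of the arm did, while Fasn rose. Scd2 was at 71.6, 72.7 and 75.9 CPM in ILC2s alone and 426, 411 and 393 CPM with eosinophils, 5.55-fold higher (log2 change 2.47 ± 0.043, edgeR adjusted p = 1.1e-27). In eosinophils it was at 85, 88 and 78.9 CPM alone and 38.5, 40.7 and 36 CPM with ILC2s, 2.23-fold lower (log2 change -1.16 ± 0.076, edgeR adjusted p = 8.6e-08). The groups were far apart in both cells, and in ILC2s with eosinophils Scd2 made up 19.7% of the summed level of the 32 genes, against 5.85% in ILC2s alone. Scd1, its neighbour 87591 bases away, was low throughout, between 0.288 and 1.19 CPM in ILC2s alone and between 2.67 and 4.83 CPM with eosinophils (log2 change 2.24 ± 0.30, edgeR adjusted p = 1.6e-07).

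Fads2, the desaturase that starts the synthesis of long polyunsaturated fatty acids (chromosome 19, 10062765 to 10101746, mm10), was near its detection limit in ILC2s alone. It had 8, 10 and 13 counts there (0.384, 0.45 and 0.454 CPM) and 371, 303 and 323 counts with eosinophils (15.8, 13.4 and 13.2 CPM). This was the largest fold change of the 32, 32.2-fold (log2 change 5.01 ± 0.19, edgeR adjusted p = 1.1e-19). In eosinophils the counts were 0, 4 and 1 alone and 3, 2 and 1 with ILC2s, where a count of 0 allows up to 3 counts in a library. The adjacent desaturase gene Fads1, 81142 bases away, was already at 33.4, 33.4 and 32.2 CPM in ILC2s alone and rose only to 39, 39.5 and 36.3 CPM (log2 change 0.21 ± 0.062, edgeR adjusted p = 0.00404), a call lost with library totals (0.05, adjusted p = 0.478).

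Acaca, which makes malonyl-CoA, was at 27, 29.5 and 25.9 CPM in ILC2s alone and 57.4, 58.9 and 53.5 CPM with eosinophils (log2 change 1.04 ± 0.063, edgeR adjusted p = 7.2e-15). Eosinophil levels were 19, 23.5 and 18.3 CPM alone and 21.5, 25.7 and 20 CPM with ILC2s, with overlap (log2 change 0.11 ± 0.13, edgeR adjusted p = 0.575). Fasn, the synthase that uses malonyl-CoA, rose in both cells. It was at 104, 98.8 and 102 CPM in ILC2s alone and 196, 179 and 156 CPM with eosinophils (log2 change 0.79 ± 0.054, edgeR adjusted p = 8.9e-14). Eosinophils held 26.2, 29.2 and 29.1 CPM alone and 34.8, 42.3 and 35.4 CPM with ILC2s (log2 change 0.38 ± 0.094, edgeR adjusted p = 0.00887), and this rise did not pass without replicate 1 of eosinophils alone (adjusted p = 0.0529) or replicate 2 of eosinophils with ILC2s (0.0512). Elovl6, which lengthens palmitate, rose in ILC2s by a log2 fold change of 1.56 and did not pass in eosinophils (-0.19 ± 0.24, edgeR adjusted p = 0.626).

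The difference between the 2 responses was tested directly as an interaction over all 12 libraries. It was higher in ILC2s for 23 of the 32 genes and lower for 2, with 7 that did not pass, where 26.8% of 15745 genes were higher and 24.8% lower. Both cell types shared 1 spread in this fit (common coefficient of biological variation 6.38%). The separate fits gave 4.71% in ILC2s and 7.92% in eosinophils. Tissue of origin and the cytokines given before differ with the cell type here too. The log2 difference was largest, among those with the smallest p, for Scd2 (3.61 ± 0.086, edgeR adjusted p = 3e-20), Hsd17b7 (3.44 ± 0.25, 3e-11) and Srebf1 (1.54 ± 0.075, 2.9e-14). Lss (1.34), Insig1 (1.29) and Mvd (1.06), which fell in eosinophils, followed. Sc5d (-0.37 ± 0.084, edgeR adjusted p = 0.00071) and Scap (-0.40 ± 0.085, adjusted p = 0.00033) were lower. Sc5d had fallen in ILC2s and Scap had risen in eosinophils. The responses of Ebp (-0.03 ± 0.11), Ggps1 (-0.08 ± 0.15), Dhcr7 (0.32 ± 0.18), Fads1 (-0.37 ± 0.17), Tm7sf2 (-0.48 ± 0.20), Srebf2 (-0.18 ± 0.075) and Insig2 (0.31 ± 0.13) did not pass, which does not show that they were alike. All of these but Ebp and Ggps1 passed in at least 1 alternative, Srebf2 in 10 (-0.37 to -0.18). The value of Fads2 (4.88 ± 1.1, adjusted p = 0.00075) rests on few eosinophil counts, and did not pass without replicate 2 of eosinophils alone (3.33, adjusted p = 0.2). With library totals the share of higher calls among all genes fell from 51.9% to 39.6%.

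**Figure D3:**
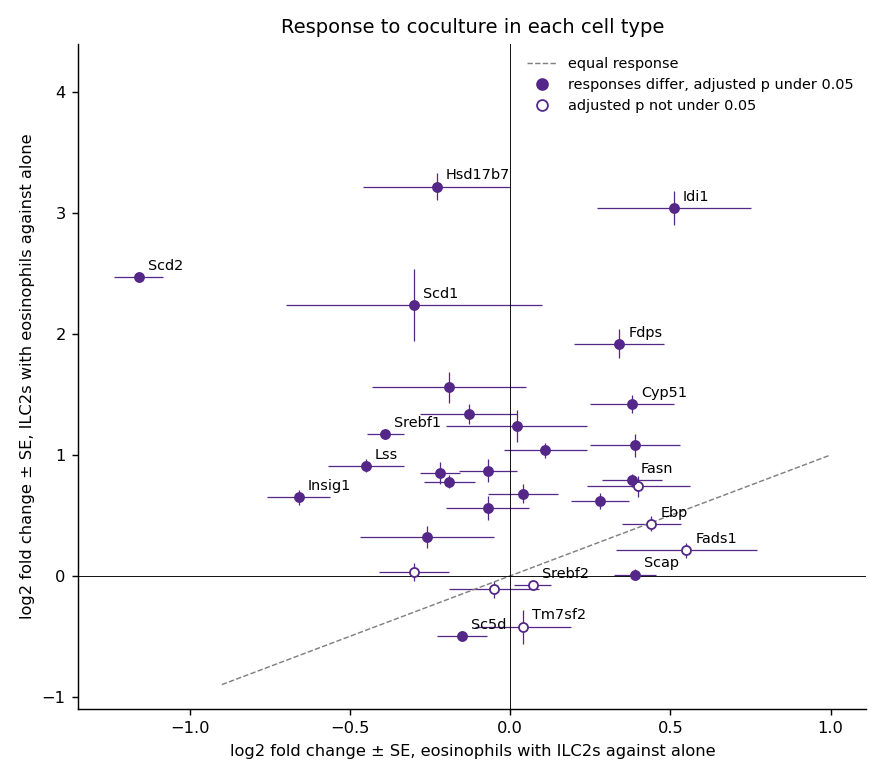
Log2 fold change with coculture in ILC2s (y axis) against that in eosinophils (x axis) for the 31 genes tested in both, with bars of ± SE, where filled points had responses that differed in the interaction test. Scd2 lies at the upper left (-1.16 in eosinophils, 2.47 in ILC2s), Ebp lies on the dashed line of equal response, and Scap and Sc5d are the filled points below it.

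Between the cell types alone, the genes were split. Of 31 tested, 11 were higher in ILC2s, 9 were lower and 11 did not pass, close to the 40.8% higher and 39.9% lower of all 14525 genes tested. Tissue of origin and the cytokines given before differ with the cell type and cannot be told apart from it. Fads1 (log2 change 3.63 ± 0.12, edgeR adjusted p = 3.3e-13) and Fasn (1.86 ± 0.068, 1.6e-12) were higher in ILC2s, and Mvd (-3.26 ± 0.075, 5.2e-15), Msmo1 (-1.40 ± 0.10, 8.6e-09) and Scap (-1.23 ± 0.069, 2.6e-10) in eosinophils. This split depends on the scaling: with library totals, which moved the median of all genes by 0.57, 22 of the 31 were higher and 4 lower, and rises made up 70.1% of all calls in place of 50.5%.

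After coculture, 25 of 32 were higher in ILC2s, 4 lower and 3 did not pass, against 43.6% and 40.5% of all 14634 genes tested. Scd2 (log2 fold change 3.41 ± 0.057), Hsd17b7 (3.71 ± 0.12) and Fads2 (6.84 ± 0.28; 997 counts over the 3 ILC2 libraries and 6 over the 3 eosinophil libraries) had the largest values. Mvd (-2.23 ± 0.066), Scap (-1.65 ± 0.048), Tm7sf2 (-0.76 ± 0.15) and Msmo1 (-0.50 ± 0.084) were higher in eosinophils, Msmo1 not with library totals (-0.10). With that scaling rises made up 65.8% of all calls in place of 51.8%. This comparison and that of the cells alone share no library with each other, but each shares libraries with the coculture comparisons, so they are given side by side and not as independent evidence.

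Per kilobase of exon, with the exons of all annotated transcripts merged, the order of the genes differed between the cells. The order between genes depends on this length. Without it, Srebf2 (256 CPM, merged length 7184 bases) was above Mvd (107 CPM, 1859 bases) in eosinophils alone. In ILC2s alone Srebf2 was highest at 49.3 ± 1.54 CPM per kb, followed by Sc5d (22.3 ± 0.29), Srebf1 (16.6 ± 0.634) and Scd2 (13.4 ± 0.405), and these levels did not overlap with the one before. In ILC2s with eosinophils Scd2 led at 75 ± 3.07 CPM per kb, then Srebf2 (46.9 ± 1.51), Srebf1 (37.6 ± 0.928) and Insig1 (19.8 ± 0.802). In eosinophils alone Mvd led at 57.8 ± 3.36 CPM per kb, then Srebf2 (35.6 ± 2.12), and Srebf1 (28.8 ± 1.55) and Scap (27.8 ± 2.69), which overlapped. In eosinophils with ILC2s Mvd (50.5 ± 1.24) was followed by Srebf2 (38.2 ± 0.939) and Scap (37 ± 0.403), which overlapped, and Srebf1 (22.5 ± 0.0339). Scd1, at 0.165 to 0.821 CPM per kb in the 4 groups, and Elovl6 and Idi1 were among the lowest in ILC2s alone, and Fads2 was the lowest in 3 of the 4 groups.

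**Figure D4:**
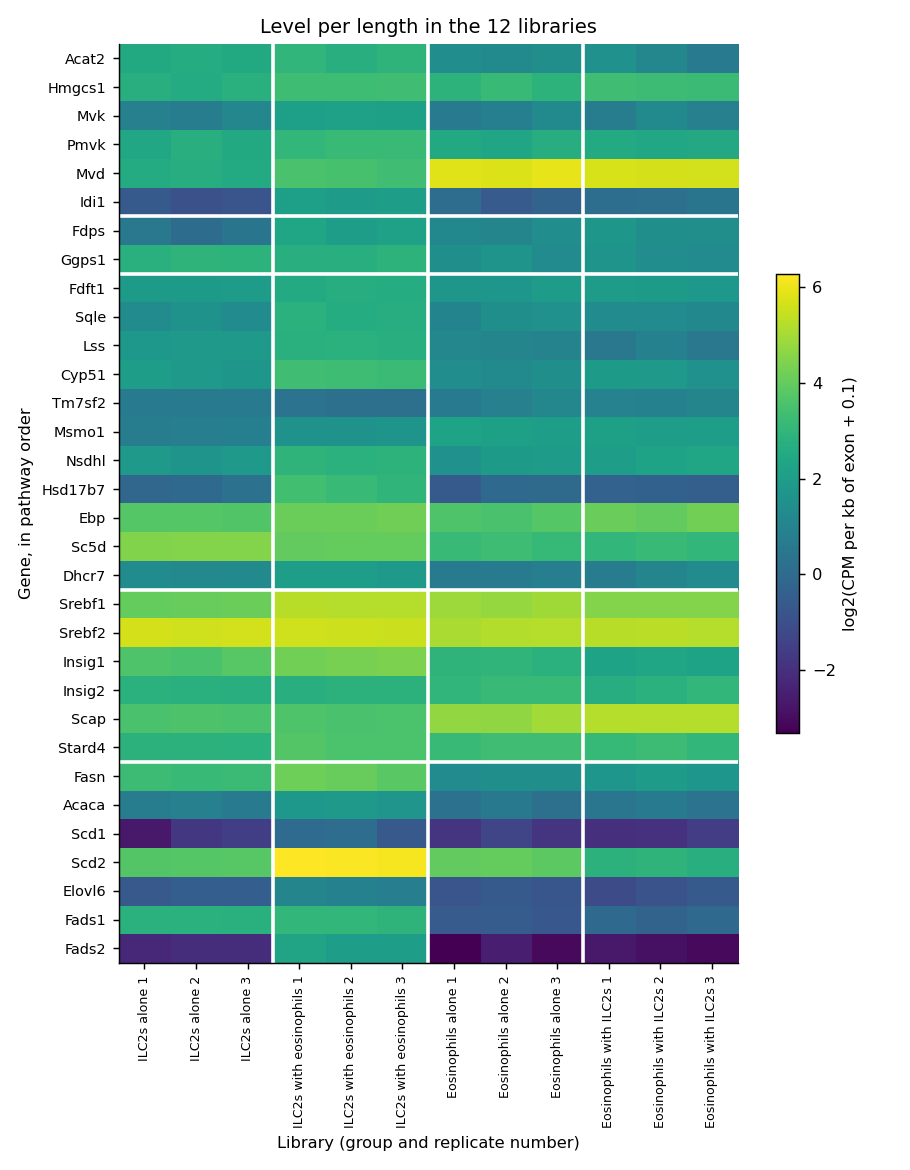
Level of the 32 genes (rows, in pathway order, white lines between roles) in the 12 libraries (columns, white lines between groups), as log2 of CPM per kb of exon plus 0.1. The row of Scd2 is brightest in ILC2s with eosinophils (75 CPM per kb), that of Mvd in both eosinophil groups (57.8 and 50.5), and that of Fads2 is darkest in eosinophils.

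Other genes of cholesterol synthesis went the same way in ILC2s. Of 8 listed, 7 were in the table and 6 were tested in ILC2s. All 6 rose, where 36.8% of all genes tested rose and 35.6% fell. Tmem97, a membrane protein that binds sterols (log2 fold change 1.61), and Erg28, a scaffold of sterol demethylation (1.40), were among them. In eosinophils 7 were tested, of which 1 fell and 6 did not pass, where 11.4% of all genes tested rose and 13.5% fell. Tmem97 was among those that did not pass there (0.44, edgeR adjusted p = 0.0672).

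Genes that use isoprenoids went both ways. Of 13, 8 rose and 3 fell in ILC2s, where 36.8% of all genes tested rose and 35.6% fell, and their median log2 fold change was 0.33. In eosinophils 1 rose and 2 fell, beside 11.4% and 13.5% of all genes, with a median of 0.11. Pdss1, which makes the tail of coenzyme Q (1.41), the protein prenyltransferase subunits Fntb (1.08) and Rabggtb (1.04), and the Rab escort protein Chm (0.33) rose in ILC2s by log2 fold change. In eosinophils Dhdds, of dolichol synthesis, rose (0.46) and Rabggta fell (-0.37).

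Of the other 20 genes of fatty acid synthesis and activation, 19 were tested in ILC2s, where 9 rose and 6 fell beside 36.8% and 35.6% of all genes, with a median log2 fold change of 0.02. In eosinophils 17 were tested, of which 4 rose and 3 fell beside 11.4% and 13.5% of all genes, with a median of 0.19. Me1, the malic enzyme that supplies NADPH, rose in ILC2s from 2.2 ± 0.179 to 20.3 ± 1.08 CPM (log2 change 3.21 ± 0.12, edgeR adjusted p = 1.8e-19). The elongation reductase Hsd17b12 (1.77) and the acyl-CoA synthetase Acsl5 (1.01) rose, and Acss2, which makes acetyl-CoA from acetate, fell (-1.21). Acly, which makes cytosolic acetyl-CoA from citrate, was the clearest change in eosinophils, from 1085 ± 38.5 to 449.7 ± 13.4 CPM (log2 change -1.30 ± 0.055, edgeR adjusted p = 1.1e-09), while in ILC2s it rose from 178 ± 6.29 to 227 ± 10.8 CPM (0.34 ± 0.041, adjusted p = 1.4e-08). Hacd2, an elongation dehydratase, rose in eosinophils (0.50).

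Genes of SREBP processing and of sterol-regulated protein turnover showed no common direction. In ILC2s 7 of 15 rose and 6 fell (36.8% and 35.6% of all genes tested), with a median log2 fold change of -0.04, and in eosinophils 2 rose and 1 fell (11.4% and 13.5% of all genes), with a median of 0.15. In ILC2s the segregase Vcp (0.64), the kinase Akt1 (0.49) and the protease Mbtps1 (0.40), which cleaves SREBPs in the Golgi, rose, and the AMPK subunit Prkaa1 fell (-0.49). In eosinophils Vcp rose (0.24) and Fbxw7, a ubiquitin ligase subunit for nuclear SREBPs, fell (-0.28).

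Among sterol uptake genes and LXR targets, 14 of 16 were tested in ILC2s, where 6 rose and 7 fell beside 36.8% and 35.6% of all genes (median log2 fold change -0.12). In eosinophils 13 were tested, of which 3 rose and 4 fell beside 11.4% and 13.5% of all genes (median -0.08). Mylip, a ubiquitin ligase, fell in ILC2s (-1.96), from 67.1 ± 1.35 to 17.3 ± 1.78 CPM. Lpcat3, a phospholipid acyltransferase (1.57), and Npc2, a lysosomal cholesterol carrier (1.26), rose in ILC2s. In eosinophils the lysosomal lipase Lipa (0.84) and Soat1 (0.79), which esterifies cholesterol, rose.

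**Figure D5:**
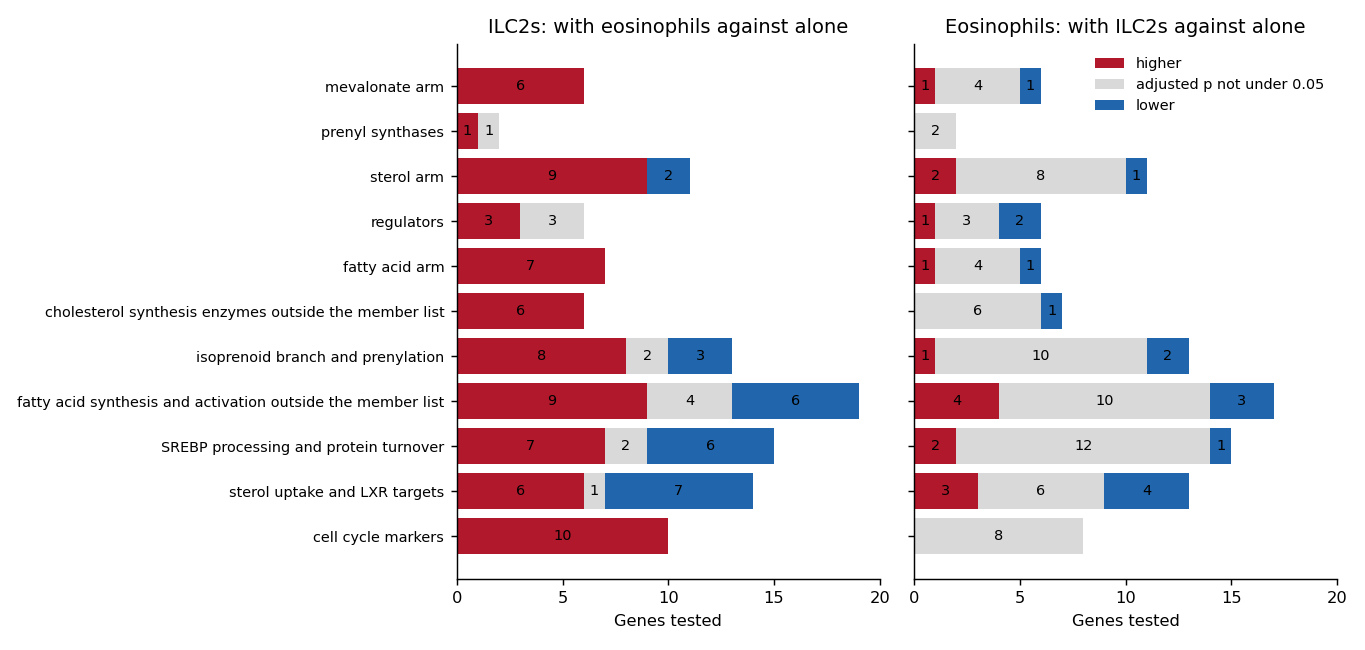
Number of genes tested (x axis) in each role of the 32 genes and in each further list (y axis), split into those higher, those with an adjusted p not under 0.05 and those lower, for ILC2s (left) and eosinophils (right). In ILC2s 6 of 6 mevalonate genes, 7 of 7 fatty acid genes and 10 of 10 cell cycle markers are higher. Of all genes tested, 36.8% are higher and 35.6% lower in ILC2s, and 11.4% and 13.5% in eosinophils. In eosinophils the genes that did not pass are the largest part of most lists, but 7 of 13 genes of sterol uptake and LXR targets and 3 of 6 regulators did pass.

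Cell cycle markers moved with these genes in ILC2s. All 10 rose, beside 36.8% of all genes tested, among them Rrm2 (log2 fold change 4.57), Ccna2 (3.68), Top2a (3.24) and Pcna (2.46). Of 8 tested in eosinophils 0 passed in edgeR, DESeq2 and limma-voom, with 3, 2 and 1 at an unadjusted p under 0.05. Of all genes tested in eosinophils 11.4% rose and 13.5% fell in edgeR. Top2a (-0.62) and Mki67 (-0.30) had the smallest p-values there in edgeR. The part of proliferation in the rise of the lipid genes was not tested. RNA of the partner cell was low. The 12 eosinophil markers summed to 5.06 to 5.96 CPM by library totals in ILC2s alone and 11.2 to 13.8 CPM in ILC2s with eosinophils, against 16591 to 16911 CPM in the cocultured eosinophils. Most of the increase was Cd24a (1.42 to 1.73 and 6.46 to 9.06 CPM), Siglecf stayed between 0.218 and 0.397 CPM, and Prg3 was at 0. The ILC2 and lymphoid list summed to 189 to 196 CPM in eosinophils alone and 239 to 244 CPM with ILC2s. Among its genes Ets1 went from 37.7 to 48.7 CPM to 61.1 to 68.8 CPM there and Ptpn22 from 131 to 136 CPM to 161 to 167 CPM, while its defining gene Gata3 was at 0.192 to 0.421 CPM in the cocultured eosinophils and at 771 to 801 CPM in the cocultured ILC2s. Markers of other cells also moved: the erythroid and platelet list, chiefly Hba-a1, went from 1.19 to 1.92 CPM to 15.2 to 19.4 CPM in ILC2s, the neutrophil list from 0 to 0.17 CPM to 1.89 to 6.2 CPM, chiefly Mpo (0 to 0.113 CPM and 1.34 to 4.62 CPM) and Elane (0 CPM and 0.409 to 1.48 CPM), with S100a8 and S100a9 at 0, and the basophil and mast cell list was lower with coculture in both cells (164 to 180.1 and 64.5 to 72.5 CPM in ILC2s; 48.4 to 58.1 and 21.8 to 25.3 CPM in eosinophils). In ILC2s that fall was chiefly Kit (161 to 177 and 54.9 to 67.7 CPM), while Gzmb was higher (1.87 to 2.57 and 2.83 to 7.53 CPM). In eosinophils it was chiefly Hdc (30.8 to 38.4 and 12.5 to 15.9 CPM) and Kit (10.1 to 12.9 and 1.94 to 3.53 CPM). The part of these markers in the results was not tested.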

How the data were processed

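Per the labels' protocols, Trizol was used for extraction and the NEBNext Ultra II RNA kit for library preparation. The authors' deposited values are raw read counts per gene, not normalized. Build mm10 is named in the submitters' processing notes, with STAR 2.5.2b, Trimmomatic 0.36, bcl2fastq 2.17 and featureCounts (Subread 1.5.2). Annotation, strand setting and handling of reads with several positions are not stated in these sources. GENCODE M21 gave symbols and exon lengths for this build. No 2 replicates were duplicates: their counts differed by 2.57 to 19.5 in chi-square over its degrees of freedom, where sampling alone gives about 1. Each comparison was fitted on the whole table in edgeR 4.0.16 (R 4.3.3) with filterByExpr, TMM and the quasi-likelihood F test, with no covariates, on its 6 libraries (the interaction on 12). Benjamini-Hochberg adjustment ran over all genes tested, and the SE is the log2 fold change over the square root of F. The common coefficient of biological variation was 4.71% in ILC2s and 7.92% in eosinophils. Alternatives were DESeq2 1.42.0, limma 3.58.1 (voom), other scalings and filters, all 12 libraries, a replicate block and leaving out each library. The members and lists were chosen with earlier results of these data known. Values in every library are given for the 8, 6 and 6 members with the smallest p in ILC2s, in eosinophils and for the difference, for members that fell and for the regulators. Of each other list, up to 4 genes by p in ILC2s and 2 in eosinophils are named, and Slc25a1 and other list genes are counted only. Values of 3 list genes are not reported here. No sample or column was left out.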

Additional observations from a re-analysis of the deposited data

Results flagged for a closer look

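The response to coculture differed between ILC2s and eosinophils by the interaction test for 25 of the 32 genes (edgeR adjusted p under 0.05 over all 12 libraries). Of all 15745 genes tested this way, 26.8% were higher and 24.8% lower. Values here are the log2 response of ILC2s minus that of eosinophils. In the mevalonate arm it was 0.57 for Acat2, 0.32 for Hmgcs1, 1.2 for Mvk, 0.61 for Pmvk, 1.06 for Mvd and 2.51 for Idi1, and for the prenyl synthase Fdps it was 1.56. In the sterol arm it was 0.62 for Fdft1, 1.44 for Sqle, 1.34 for Lss, 1.02 for Cyp51, 0.91 for Msmo1, 0.67 for Nsdhl, 3.44 for Hsd17b7 and -0.37 for Sc5d. Among the regulators it was 1.54 for Srebf1, 1.29 for Insig1, 0.95 for Stard4 and -0.40 for Scap. In the fatty acid arm it was 0.39 for Fasn, 0.90 for Acaca, 2.53 for Scd1, 3.61 for Scd2, 1.74 for Elovl6 and 4.88 for Fads2. Scd1 had between 6 and 109 counts in an ILC2 library and between 12 and 24 in an eosinophil library. The Acat2 difference passed narrowly (edgeR adjusted p = 0.0296) and did not pass in 8 of the 12 fits that leave out 1 library (0.0524 to 0.129), nor with library totals (0.145) or upper quartile factors (0.054). The Hmgcs1 difference did not pass with library totals (0.13, edgeR adjusted p = 0.347), with upper quartile factors (adjusted p = 0.0612), or without replicate 2 of ILC2s alone (0.067) or of eosinophils alone (0.081). For Fasn it did not pass with library totals (0.20, edgeR adjusted p = 0.16).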

How the results depend on the processing

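Calls of the 32 genes kept their side of the threshold and, where they passed, their direction in every alternative for 27 of 32 in the ILC2 response, 20 of 31 in the eosinophil response, 17 of 31 between the cells alone, 28 of 32 between the cocultured cells and 23 of 32 for the difference. In ILC2s 2 members fell, against 5 with library totals and 4 with upper quartile factors. In eosinophils 5 members rose, against 9 with all 12 libraries in the fit, and from 2 to 5 when 1 library was left out (2 without replicate 1 of eosinophils alone or replicate 2 of eosinophils with ILC2s). Over all genes 1491 rose in eosinophils, against 2276 with all 12 libraries and from 948 (without replicate 3 of eosinophils with ILC2s) to 1604 when 1 was left out. Between the cells alone library totals gave 22 members higher and 4 lower (11 and 9 in the report) and 3666 genes lower (5796). The difference was lower for 2 members, against 5 with library totals, 5 with upper quartile, 4 with RLE factors and 4 with DESeq2, and from 2 to 4 with 1 library left out (4 without replicate 3 of eosinophils alone). Scaling by totals shifted the all-gene median by -0.16 in ILC2s, 0.57 and 0.40 between cell types alone and cocultured, and -0.19 for the difference. Counting only genes called under either scaling, it turned the sign of Scap in ILC2s (-0.15) and of Insig2 (0.34) between the cocultured cells. Between the cells alone it did so for Hmgcs1 (0.28), Mvk (0.55), Nsdhl (0.57), Insig2 (0.23), Stard4 (0.11) and Scd2 (0.38, and 0.05 with upper quartile). Same-numbered libraries correlated at -0.0984 to 0.0774 in the other comparisons and at 0.0421 to 0.374 in that of the eosinophil groups. Eosinophil libraries with unlike numbers correlated at -0.341 to 0.242. Whether the numbers pair the eosinophil samples is not settled by these values. With the numbers as a block, 7 members rose and 7 fell in eosinophils and 26 rose and 2 fell in ILC2s. Over all genes in eosinophils the block gave 2029 higher and 2139 lower, against 1491 and 1771 without it. Genes under about 3 counts in a library, such as Fads2 in eosinophils, are limited by depth.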
